A study of Mus musculus with 13 samples.

Results

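Mouse T-ALL (T-cell acute lymphoblastic leukaemia) of the early stage was compared with CD4-CD8- thymocytes on 1-colour Agilent miRNA arrays, with 3 arrays per group. Of the 1122 mouse miRNAs on the array, 192 were marked as detected by the scanner software on all 3 arrays of at least 1 of these groups, and these 192 miRNAs are described here. Of them, 134 were detected on all 6 arrays, 52 on all 3 thymocyte arrays but not on all leukaemia arrays, and 6 on all 3 leukaemia arrays but not on all thymocyte arrays. A miRNA that entered through 1 group alone was chosen for being measurable there, so its difference between the groups is partly set by that choice. Another 807 mouse miRNAs were detected on none of the 6 arrays. Just outside the rule were 26 miRNAs detected on 2 of the 3 thymocyte arrays and 41 detected on 2 of the 3 leukaemia arrays, with median log2 signals of -5.97 and -5.87, where the lowest means inside it were -6.90 and -6.00.

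The thymocytes (DN) lack CD4 and CD8 and were sorted by flow cytometry from C57BL/6 thymus. The early-stage leukaemia (ES) was sorted as CD4+CD8+ cells from the spleen of C57BL/6 bone marrow chimeras whose marrow was transformed with N1ICD, the active intracellular part of Notch1. Late-stage leukaemia (LS, sorted in the same way from spleens of such chimeras) and CD4+CD8+ thymocytes (DP, from C57BL/6 thymus), with 3 arrays each, share the statistical fit. M295, a cultured T-ALL line from C57BL/6, has 1 array. The submitters describe the 3 arrays of each group as biological replicates; the ages of the mice are not given in the sources used here. ES and DN differ in disease, in organ, in surface type and in the use of bone marrow chimeras with transformed marrow, and these cannot be told apart. In sorted bulk cells, fewer cells of a type and less miRNA per cell cannot be told apart either.

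A miRNA is a short RNA that guides the silencing machinery to messenger RNAs, mainly through its seed, bases 2 to 8 from the 5′ end. miRNAs with the same seed can share targets. CD4-CD8- thymocytes are the immature stage at which Notch1 signalling commits progenitors to the T lineage, and they give rise to CD4+CD8+ thymocytes. Unchecked Notch1 activity drives T-ALL in mice and humans.

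The sequences that follow are those of the 12 miRNAs that differed between ES and DN in the fit described further on, together with members that share their seeds and with miR-21-5p and miR-223-3p, which are described for their level and their spread. Sequences and positions are from RefSeq on the GRCm38.p6 build, in which 148 of the 192 miRNAs were matched, 141 by name and 7 through a synonym. Capitals mark the seed.
miR-449a-5p: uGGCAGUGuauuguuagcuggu
miR-34a-5p: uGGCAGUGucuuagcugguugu
miR-721: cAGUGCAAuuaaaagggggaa
miR-130b-3p: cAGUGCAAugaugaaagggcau
miR-301a-3p: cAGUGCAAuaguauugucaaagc
miR-370-3p: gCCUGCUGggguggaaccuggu
miR-3472: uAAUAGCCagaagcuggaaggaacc
miR-126-3p: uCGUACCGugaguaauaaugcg
miR-128-3p: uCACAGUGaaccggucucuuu
miR-181a-5p: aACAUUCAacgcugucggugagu
miR-181b-5p: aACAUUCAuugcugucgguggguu
miR-181c-5p: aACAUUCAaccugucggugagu
miR-181d-5p: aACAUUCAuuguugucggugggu
miR-30a-5p: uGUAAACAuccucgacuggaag
miR-374c-5p: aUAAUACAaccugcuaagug
miR-211-5p: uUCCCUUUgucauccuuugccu
miR-362-5p: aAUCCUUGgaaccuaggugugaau
miR-21-5p: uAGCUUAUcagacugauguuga
miR-223-3p: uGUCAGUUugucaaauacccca

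The arrays were compared before the miRNAs. Software detection gave 192 to 234 mouse miRNAs per DN array (mean 216 ± 21.6, SD, n = 3) and 148, 238 and 281 on ES 1, ES 2 and ES 3 (mean 222 ± 67.9, n = 3). The difference of 6.33 miRNAs lay within the spread between replicates (p = 0.8 in a two-sided exact permutation test; 3 arrays against 3 cannot go below 0.1). ES 1 stood apart in quality: the SD of its negative control spots was 18.7 against at most 7.11 on the other 12 arrays, and 8.60% of its spots were outliers. The lowest log2 signal well above background on ES 1 was -5.85, so lower values on that array are not measured levels. Values without ES 1 are given for part of the miRNAs and lists only. Where none is given, a value may still depend on ES 1. DN 1, ES 1 and ES 2 lay on slide 1, and DN 2, DN 3 and ES 3 on slide 2.

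Levels are log2 signals relative to each array's own 75th percentile over 133 miRNAs detected on all 12 primary arrays, with a common floor at -7.09. A level compares the same miRNA between arrays, and not different miRNAs with each other. All 4 primary groups were fitted together in limma, and p-values were adjusted by the Benjamini-Hochberg method over the 268 mouse miRNAs detected on all 3 arrays of any group. At an adjusted p under 0.05, 14 of the 268 were called (5.22%), 5 higher in ES (1.87%) and 9 lower (3.36%). Of the 192 members, 12 were called, 4 higher and 8 lower in ES. By class, 1 was higher and 4 were lower among the 134 detected on all 6 arrays, 4 were lower among the 52 that entered through DN, and 3 were higher among the 6 that entered through ES. The called miRNAs outside the members were miR-669c-3p (log2 fold change 1.10) and miR-324-3p (-0.89). The split between directions depended on the scaling. It was 5 higher and 9 lower in the main fit, 12 and 7 after scaling by the median of the detected miRNAs, 20 and 8 after quantile normalization, 14 and 7 in the deposited value table, and 43 and 2 after scaling by the 75th percentile of all mouse miRNAs. With normexp background correction it was 0 and 4. Scaling by all mouse miRNAs raised the median log2 fold change of all tested miRNAs by 0.22.

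**Figure D1:**
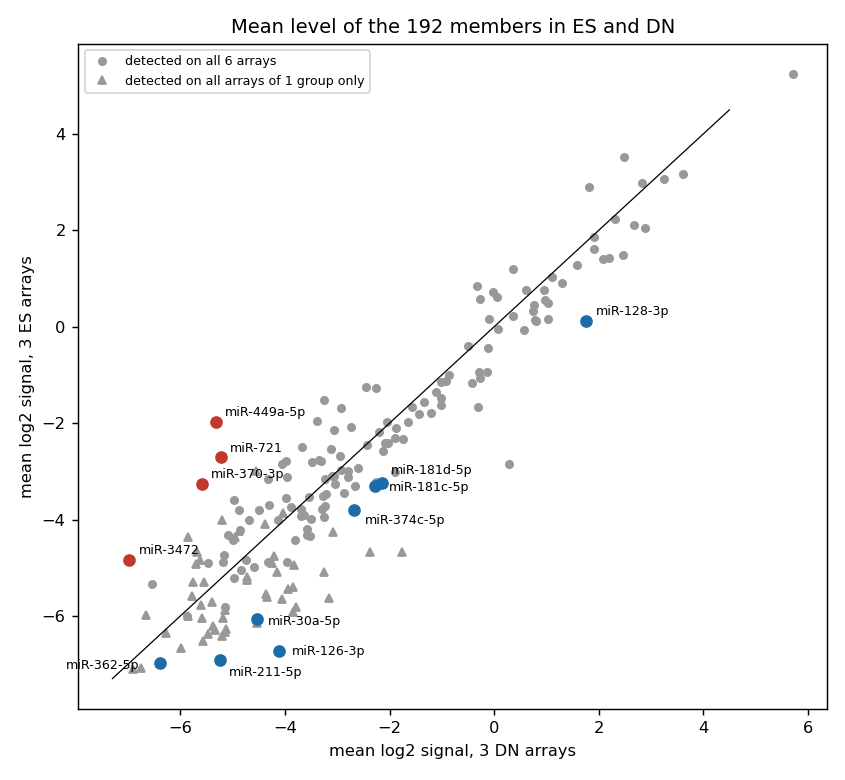
Mean log2 signal of the 192 members over the 3 DN arrays (horizontal axis) and the 3 ES arrays (vertical axis), relative to each array's 75th percentile. The line marks equal levels, red and blue points are the 4 members called higher and the 8 called lower in ES, and triangles are members that entered through 1 group alone. Members below the line outnumber those above it. This is partly set by the entry rule, since 52 entered through DN alone and 6 through ES alone. The median log2 fold change was -0.26 over the 192 and -0.21 over the 134 detected on all 6 arrays.

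Of the called falls, the steepest was that of miR-126-3p, a miRNA of endothelial cells and blood stem cells that lies within the endothelial gene Egfl7 (chr2:26591402-26591423, plus strand). Its log2 signals were -4.06, -4.13 and -4.14 on the DN arrays and -7.09, -6.27 and -6.85 on the ES arrays. The ES arrays lay far below the DN arrays without overlap, and none of the 3 was well above background. With the main processing, miR-126-3p was at least 4.62-fold lower in ES (fitted log2 fold change -2.63 with SE 0.35 and adjusted p = 0.00487 in limma). This bound set each ES array to the higher of its value and its lowest signal well above background. It does not cover other processing: the log2 fold change was -1.69 in the deposited value table and -0.78 with normexp background correction. miR-126-3p was the only one of the 12 whose call held when any single DN or ES array was left out (log2 fold change -2.86 to -2.45, highest adjusted p 0.0361 in limma). The call did depend on the floor: with no common floor it was lost (log2 fold change -3.09, adjusted p = 0.0633 in limma). Of the 8 endothelial and stromal markers listed, the other 7 were detected on no DN or ES array, and miR-126-3p was also the only member among 12 listed stem and progenitor miRNAs.

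miR-128-3p, a miRNA of brain and lymphoid cells, was measured well above background on every array. It stood at 1.82, 1.85 and 1.64 in DN and at 0.62, 0.44 and -0.68 in ES. All ES arrays were below all DN arrays, ES 3 most of all, and the fall was 3.11-fold (log2 fold change -1.64 with SE 0.33 and adjusted p = 0.0202). Its sequence is made from loci within R3hdm1 (chr1:128202404-128202424, plus strand) and Arpp21 (chr9:112118644-112118664, minus strand), which the array cannot separate.

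The miR-181 family sets the sensitivity of T-cell receptor signalling in developing thymocytes, and its 4 members share the seed shown above. miR-181c-5p was at -2.29, -2.26 and -2.29 in DN and at -3.51, -3.27 and -3.10 in ES, 2.02-fold lower (log2 fold change -1.02 with SE 0.20 and adjusted p = 0.0189). miR-181d-5p was at -2.21, -2.08 and -2.12 in DN and at -3.03, -2.85 and -3.88 in ES, 2.16-fold lower (-1.11 with SE 0.24 and adjusted p = 0.0262). Neither overlapped between groups. Their loci lie 165 bases apart on the minus strand of chromosome 8 (chr8:84178924-84178945 and chr8:84178759-84178781), and RefSeq lists no other gene around them. The copies encoded on chromosomes 1 and 2 did not pass the test: miR-181b-5p had a log2 fold change of -0.73 and miR-181a-5p one of -0.65, with ES 3 above all DN arrays for miR-181a-5p (0.50 against -0.41 to -0.13).

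miR-30a-5p belongs to a family whose 5 members on the array were all among the 192. Its signals were -4.54, -4.45 and -4.59 in DN and -6.89, -6.12 and -5.21 in ES, 2 of the 3 ES arrays being well above background and ES 1 lying below what it could measure. The groups did not overlap (log2 fold change -1.54 with SE 0.37 and adjusted p = 0.0401). Without ES 1 the log2 fold change was -1.14 (adjusted p = 0.0546). miR-30a-5p lies at chr1:23272274-23272295 on the plus strand, outside any other gene RefSeq lists. The other 4 family members were lower by less and were not called. For miR-30c-5p the log2 fold change was -0.58 (SE 0.16, adjusted p = 0.0726).

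miR-374c-5p lies within Ftx, a long noncoding RNA gene of the X inactivation region (chrX:103573086-103573105, plus strand). It read -2.79, -2.60 and -2.62 in DN and -3.82, -3.62 and -3.95 in ES. The ES arrays were close together here, and the fall was 2.18-fold (log2 fold change -1.12 with SE 0.18 and adjusted p = 0.0126 in limma). The SE is pooled over the 4 groups and does not measure the spread of the ES arrays alone. miR-211-5p, from within the melanocyte gene Trpm1 (chr7:64205831-64205852, plus strand), was at -5.18, -5.40 and -5.17 in DN and at -7.09, -6.55 and -7.09 in ES. No ES array and 2 of the 3 DN arrays were well above background. With the main processing the fall was at least 2.37-fold (log2 fold change -1.66 with SE 0.40 and adjusted p = 0.0401 in limma). The log2 fold change was -0.86 in the deposited value table and -0.38 with normexp background correction. The opposite arm of the same hairpin, miR-211-3p, had a log2 fold change of 1.20 (SE 0.61, adjusted p = 0.195), with every ES array above every DN array. The arms of this hairpin thus had fold changes of opposite sign; the difference between the arms was not tested.

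The smallest called fall was that of miR-362-5p, encoded within Clcn5 on the X chromosome (chrX:7242019-7242042, minus strand). It read -6.45, -6.26 and -6.48 in DN and -7.09, -7.05 and -6.80 in ES, near the floor throughout (fitted log2 fold change -0.59 with SE 0.15 and adjusted p = 0.0440). Every DN value lay below the -5.85 that ES 1 could measure, so ES 1 could show no fall, and with a floor 4 times as high the difference was 0. Members encoded within 10 kb of it were miR-362-3p (-0.61), miR-500-3p (-0.74), miR-532-3p (-0.19) and miR-188-5p (0.67), and none of these was called.

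Of the called rises, that of miR-449a-5p was the largest. miR-449a-5p is known from multiciliated cells, carries the seed of the p53-regulated miR-34 family and lies within Cdc20b (chr13:113037549-113037570, plus strand). The DN arrays read -5.37, -5.41 and -5.19 and the ES arrays -0.50, -2.68 and -2.73. ES 1 was the highest and all 3 ES arrays were far above DN, giving a 10.2-fold rise (log2 fold change 3.36 with SE 0.66 and adjusted p = 0.0189). Without ES 1 the log2 fold change was 2.62 and the call remained (adjusted p = 0.0209). The seed partner miR-34a-5p was not called: its DN signals were -4.14, -4.07 and -4.26 and its ES signals -7.09, -4.61 and -3.54, on both sides of DN (log2 fold change -0.92 with adjusted p = 0.373).

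miR-721, encoded within Cux1 (chr5:136375777-136375797, minus strand), has the seed of the miR-130 and miR-301 family. It was at -5.26, -4.91 and -5.50 in DN and at -2.66, -3.22 and -2.22 in ES, 5.75-fold higher without overlap (log2 fold change 2.52 with SE 0.53 and adjusted p = 0.0256). Its seed partners had fold changes of the other sign, -0.78 for miR-130b-3p and -0.33 for miR-301a-3p, and neither was called. The array showed no common direction among the carriers of this seed. For the seed of miR-34a-5p and miR-449a-5p the directions could not be compared, since that of miR-34a-5p turned with ES 1.

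miR-370-3p comes from Rian, a maternally expressed noncoding RNA of the imprinted Dlk1-Dio3 region (chr12:109618305-109618326, plus strand). It read -5.68, -5.22 and -5.84 in DN and -4.10, -4.03 and -1.65 in ES, well above background on 1 DN array and 2 ES arrays. ES 3 was the highest of the arrays in this rise (log2 fold change 2.32 with SE 0.54 and adjusted p = 0.0401), and without it the log2 fold change was 1.52. miR-3472, which lies within the span of Rtl4 (chrX:145039390-145039414, plus strand), was at the floor on 2 DN arrays and at -6.73 on the third. With the main processing its ES signals of -4.75, -5.44 and -4.30 were at least 4.06-fold higher (fitted log2 fold change 2.14 with SE 0.41 and adjusted p = 0.0189 in limma). However, no DN array and only 2 ES arrays were well above background. The log2 fold change was 1.29 in the deposited value table and 0.30 with normexp background correction.

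**Figure D2:**
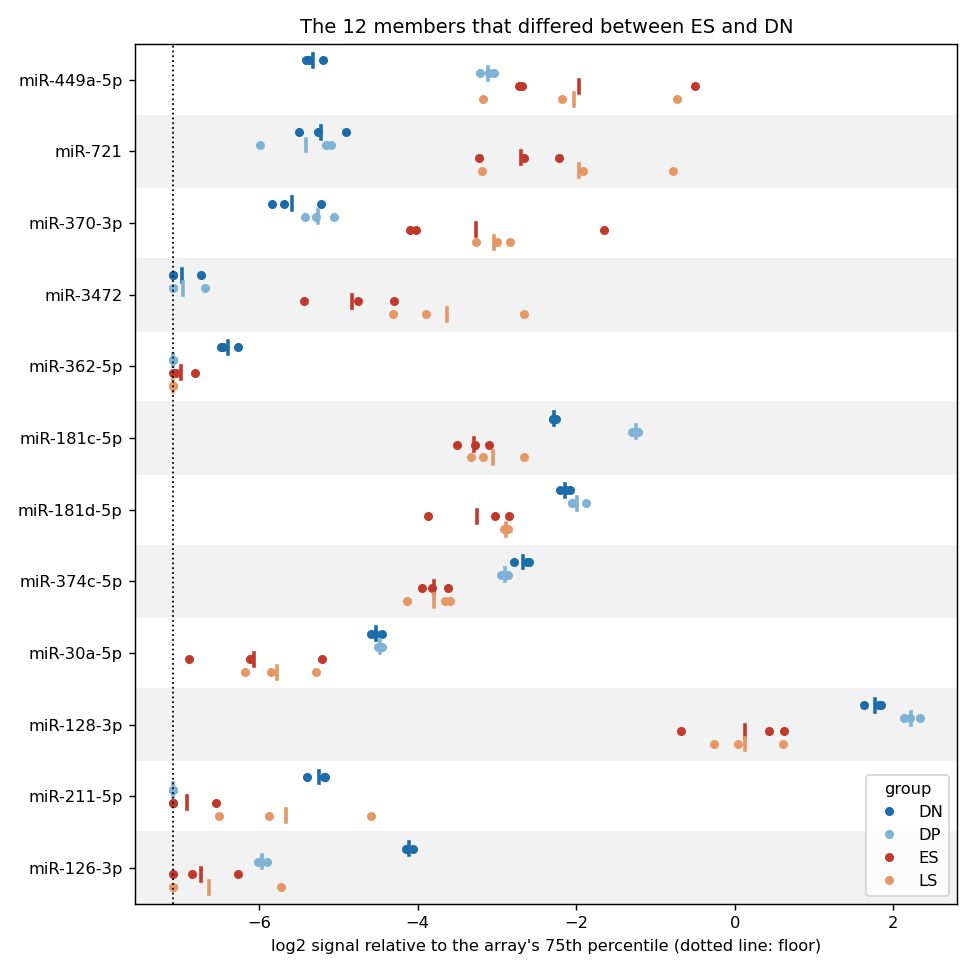
Log2 signal of the 12 called members on each array of DN, DP, ES and LS (dots, 3 per group) with the group mean (short bars), relative to the array's 75th percentile. In each row the ES dots lie wholly above or wholly below the DN dots, with the widest gap for miR-449a-5p (ES -2.73 to -0.50, DN -5.41 to -5.19).

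All 12 differences kept their sign under each scaling tried. No probe of the 12 pointed against its miRNA, though some probes of miR-211-5p and miR-362-5p lay at the floor. Leaving out a DN or ES array, or fitting within 1 slide, could not turn a sign. For each of the 12, every ES array already lay on 1 side of every DN array. The calls depended on the arrays and the settings. Without DN 1 or DN 3 the calls for miR-126-3p and miR-374c-5p remained, and without DN 2 that for miR-126-3p alone; the adjusted p of the other calls rose to at most 0.185. Without ES 1 the calls for miR-211-5p, miR-30a-5p and miR-362-5p were lost, whereas without ES 2 or ES 3 all 12 were called again. Over the 4 other scalings, miR-128-3p and miR-181d-5p were called in 0 and miR-362-5p in 1, with log2 fold changes of -1.66 to -1.24, -1.22 to -0.72 and -0.59 to -0.16. With normexp background correction none of the 4 rises was called: the log2 fold change was 1.66 for miR-449a-5p, 1.09 for miR-721, 0.95 for miR-370-3p and 0.30 for miR-3472, with adjusted p of 0.121 to 0.505. The falls of miR-126-3p, miR-128-3p, miR-181c-5p and miR-374c-5p were called under it. When each group received its own weight, because the ES arrays spread more than the DN arrays, calls were left for miR-126-3p and miR-449a-5p (adjusted p = 0.00713 and 0.0293 in limma).

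A larger set of members was separated between the groups without passing the adjusted test. In 83 of the 192, the 3 ES arrays did not overlap the 3 DN arrays, 29 higher and 54 lower. Of all tested miRNAs, 36.2% were so separated (14.2% higher, 22% lower). By class, 22 were higher and 37 lower among the 134 detected on all 6 arrays. The counts were 2 and 17 among the 52 that entered through DN, and 5 and 0 among the 6 that entered through ES. An unadjusted p under 0.05 was reached by 67 members, against 28.7% of all tested. A change of at least 2-fold was fitted for 50 members (22.4% of all tested reached it), 22 higher and 28 lower. Among the 134 it was 15 higher and 7 lower, and among the 52 that entered through DN 2 and 21. The 6 that entered through ES gave 5 and 0. The surplus of 2-fold falls thus came with members that entered through DN, whose differences are partly set by that entry. Of the 50 members, 39 were not called. miR-21-5p, an oncogenic miRNA of many cancers that lies within Vmp1 (chr11:86584120-86584141, minus strand), is among them. It read 1.87, 1.93 and 1.67 in DN and 2.44, 2.47 and 3.81 in ES; every ES array was higher, but the log2 fold change of 1.09 (SE 0.43, adjusted p = 0.153) did not pass. miR-342-3p, a miRNA of maturing lymphocytes, was at -3.39, -3.60 and -3.14 in DN and at -2.38, -2.33 and -1.15 in ES, with a log2 fold change of 1.42 (SE 0.38, adjusted p = 0.0553). It was called under all 4 other scalings (log2 fold change 1.21 to 1.82), with array weights, within slide 2, and without ES 1 or ES 2.

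Replicates spread far more in ES than in DN. The median SD over 3 arrays was 0.10 in DN and 0.67 in ES on the log2 scale, 6.75 times as large, beside 0.10 in DP and 0.35 in LS. ES had the larger SD for 183 of the 192 members. An SD above 1 was found for 50 members in ES and for 0 in DN. Over the 192 members, Pearson correlations between arrays were 0.995 to 0.996 within DN, 0.797 to 0.939 within ES and 0.824 to 0.923 between DN and ES, as a description of arrays that share the same miRNAs. ES 3 was the ES array farthest from the other two for 116 members, ES 2 for 41 and ES 1 for 37, with ties counted for each array.

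**Figure D3:**
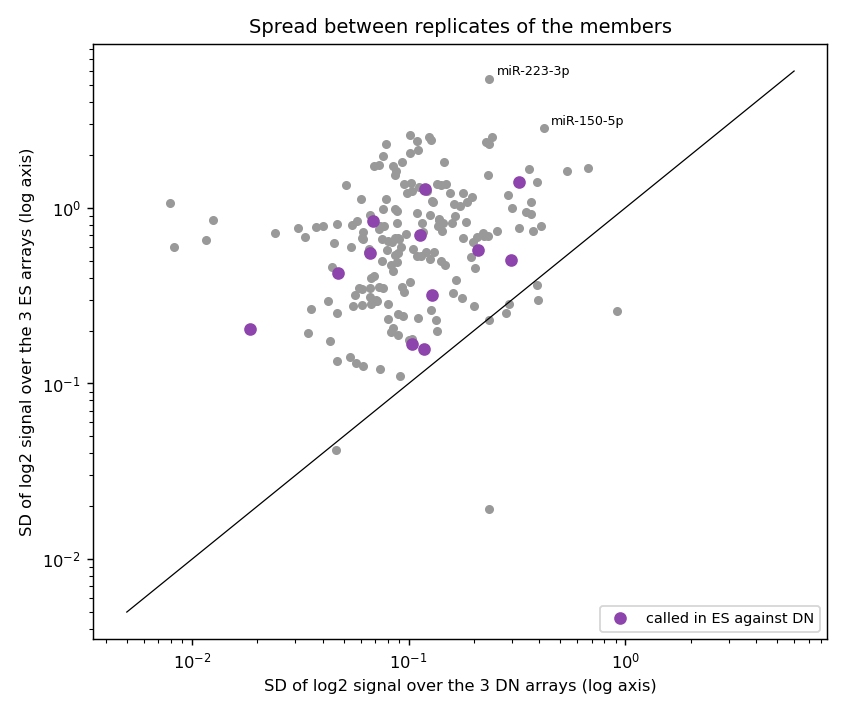
SD of the log2 signal over the 3 ES arrays against that over the 3 DN arrays (log axes) for the 191 members with an SD above 0 in both groups. Points above the line varied more between ES arrays, miR-223-3p most with an SD of 5.43, and the purple points are the 12 called members.

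Of all members, miR-223-3p, the classical miRNA of granulocytes and monocytes and also a Notch-linked oncogenic miRNA in T-ALL, spread most. Its DN signals were -4.32, -4.79 and -4.53, and its ES signals -5.60, -6.64 and 3.25. ES 1 and ES 2 were below every DN array and not well above background, while ES 3 was far above all of them. The log2 fold change of 1.55 had an SE of 1.98 (adjusted p = 0.618 in limma). Without ES 3 the log2 fold change was -1.57, and without ES 1 it was 2.85. miR-223-3p is the detected marker of the myeloid list, whose summed log2 level was -4.53 to -4.13 in DN and -5.16, -5.85 and 3.25 in ES 1, ES 2 and ES 3. The other marker of the list, miR-223-5p, was detected on no DN or ES array, so the sum is not separate from miR-223-3p. miR-22-3p, miR-146b-5p, miR-221-3p and miR-31-5p, picked here after their values were seen, were also highest on ES 3. miR-22-3p, for instance, read -4.88, -5.21 and -0.68 in ES against -4.75, -5.23 and -4.94 in DN. The part of myeloid cells in the values of ES 3 was not tested.

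In the other direction, ES 1 and ES 2 were low where ES 3 was close to DN. miR-155-5p, an activation-induced miRNA of lymphocytes, was at -2.45, -2.26 and -2.41 in DN and at -4.96, -7.09 and -1.96 in ES (log2 fold change -2.30 with SE 1.08 and adjusted p = 0.175). miR-148a-3p was at -1.79, -1.63 and -1.88 in DN and at -4.68, -7.09 and -2.25 in ES (-2.91 with SE 1.01 and adjusted p = 0.125). miR-340-5p was at the floor on ES 1 and ES 2 and at -2.69 on ES 3, with DN at -3.28, -3.03 and -3.16. Without ES 3 these 3 miRNAs passed the test, and the count of called miRNAs among all tested rose from 14 to 38, of which 33 were lower. Within slide 2, which holds ES 3 and 2 DN arrays, miR-155-5p and miR-340-5p were higher in ES by 0.37 and 0.40.

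**Figure D4:**
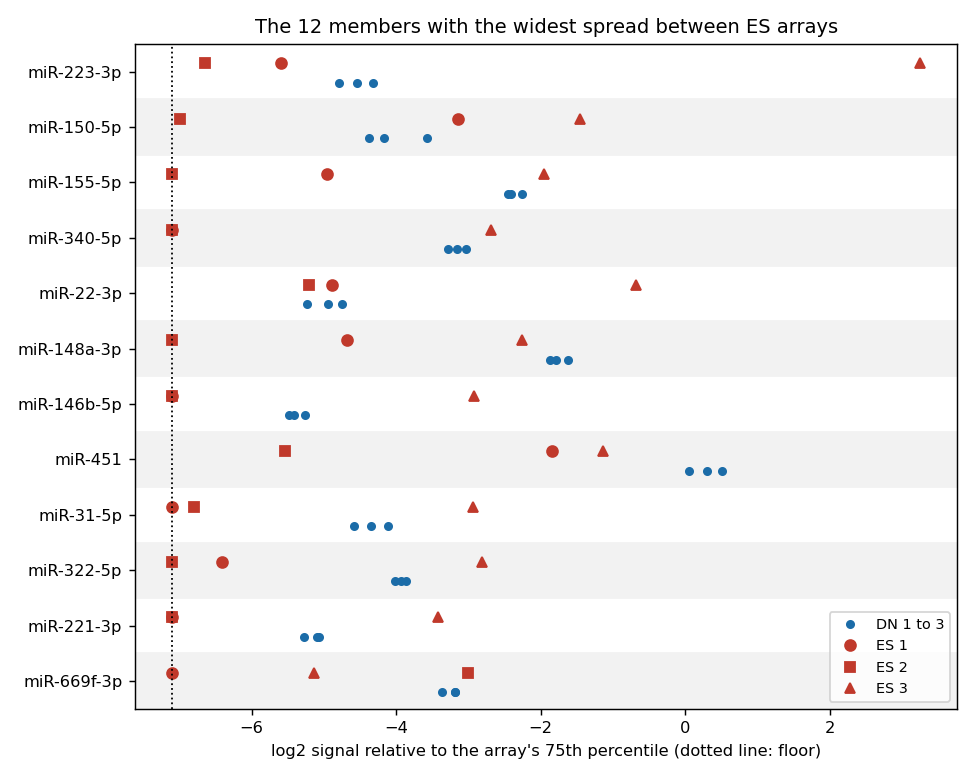
Log2 signal of the 12 members with the largest SD over the ES arrays, for the 3 DN arrays (blue) and for ES 1, ES 2 and ES 3 (red circle, square and triangle). The DN arrays cluster in every row, while ES 3 is the highest ES array in 11 of the 12 rows, miR-669f-3p being the exception.

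Neither erythroid member was called. miR-451, which is processed by Ago2 and accumulates in red cell precursors, read 0.51, 0.30 and 0.05 in DN and -1.84, -5.54 and -1.13 in ES. Every ES array was lower, but the log2 fold change of -3.12 (SE 1.18) had an adjusted p of 0.146 and was -1.77 without ES 2. miR-144-3p, from the same cluster, had a log2 fold change of -2.07. The summed log2 level of the 3 erythroid markers was 0.14 to 0.60 in DN and -1.75, -4.79 and -0.95 in ES. The sum contains miR-451 and is not separate from it. The part of red cells or their precursors in the differences between DN and ES was not tested. Of the 7 epithelial and the 6 liver, muscle and brain markers, 0 were among the members.

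The cluster of miR-17 and miR-92a and its paralogs encode oncogenic miRNAs of the lymphoid lineage. All 16 members from these clusters had a log2 fold change below 0. Their median was -0.73, against -0.26 over the 192 members and -0.14 over all tested miRNAs. None of the 16 was called in limma and 10 had an unadjusted p under 0.05; 11 had ES arrays wholly below the DN arrays. The closest to the threshold were miR-20a-3p (log2 fold change -0.97 with SE 0.25 and adjusted p = 0.0522) and miR-106b-5p (-0.69 with SE 0.19 and adjusted p = 0.0591). Read array by array, the median of the 16 relative to the DN mean was -0.47 on ES 1, -0.28 on ES 2 and -1.72 on ES 3. Without ES 2, 10 of the 16 were called lower, and without ES 3, 2 of them were. The median stayed below 0 under the other scalings, at -0.76 to -0.38. Against the same DN arrays, the median of the 16 was -0.58 in DP and -0.81 in LS, so a fall from DN was not particular to ES.

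Both remaining T-ALL lists, taken from what is known of this leukaemia, had no called member in limma, where 5 and 1 members had an unadjusted p under 0.05. The oncogenic list of 6 (miR-19b, both arms of miR-20a, miR-26a, miR-92a and miR-223) had a median log2 fold change of -0.90, with 5 members below 0. Of these, miR-19b, both arms of miR-20a and miR-92a belong to the miR-17 clusters above, so this is not a separate result. The suppressor list of 8, with miR-29, miR-31, miR-150, miR-155, miR-451 and miR-709, had a median of -0.29, which was above 0 under scaling by all mouse miRNAs (0.11), quantile normalization (0.01) and in the deposited value table (0.02). Relative to the DN mean, its median was -1.13 on ES 1, -2.03 on ES 2 and 1.15 on ES 3 (-0.41, -0.18 and 0.15 over all members). Without ES 3 the median log2 fold change was -1.001, with 2 members called lower, without ES 1 it was -0.04, and without ES 2 -0.13.

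The 8 let-7 members, repressors of growth and stem cell genes, had log2 fold changes of -0.41 to -0.08 and a median of -0.24, which turned to 0.15 under scaling by all mouse miRNAs. The 5 members of the miR-15/16 family, which targets Bcl2 and cyclins, had a median of -0.07, which was above 0 under that scaling (0.31) and in the deposited value table (0.03). The medians of the 3 miR-29 members (-0.24) and of the 5 miR-23/27/24 members (-0.38) also turned under scaling by all mouse miRNAs, to 0.15 and 0.02, and that of miR-29 turned under quantile normalization (0.03) and in the deposited table (0.05) as well. By array, the median of miR-29 relative to the DN mean was -1.04, -0.68 and 0.89 on ES 1, ES 2 and ES 3 (-0.41, -0.18 and 0.15 over all members). Without ES 1 the medians of miR-29 and miR-15/16 were 0.16 and 0.05, and without ES 3 they were -0.95 and -0.18, with 1 member of each called lower. The median of miR-23/27/24 was -0.06 without ES 1. Of these 4 families, 0 members were called in the main limma fit, 1 having an unadjusted p under 0.05. The 4 members of the miR-26 and miR-101 list, which targets Ezh2, had a median of -0.91. The 3 listed members of the miR-130 and miR-301 family had one of -0.78. Both medians stayed below 0 under each scaling. The second list leaves out miR-721, which has the seed of that family. Among miR-130b-3p, miR-301a-3p and miR-721, which share the seed, the median was -0.33 and the range -0.78 to 2.52.

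**Figure D5:**
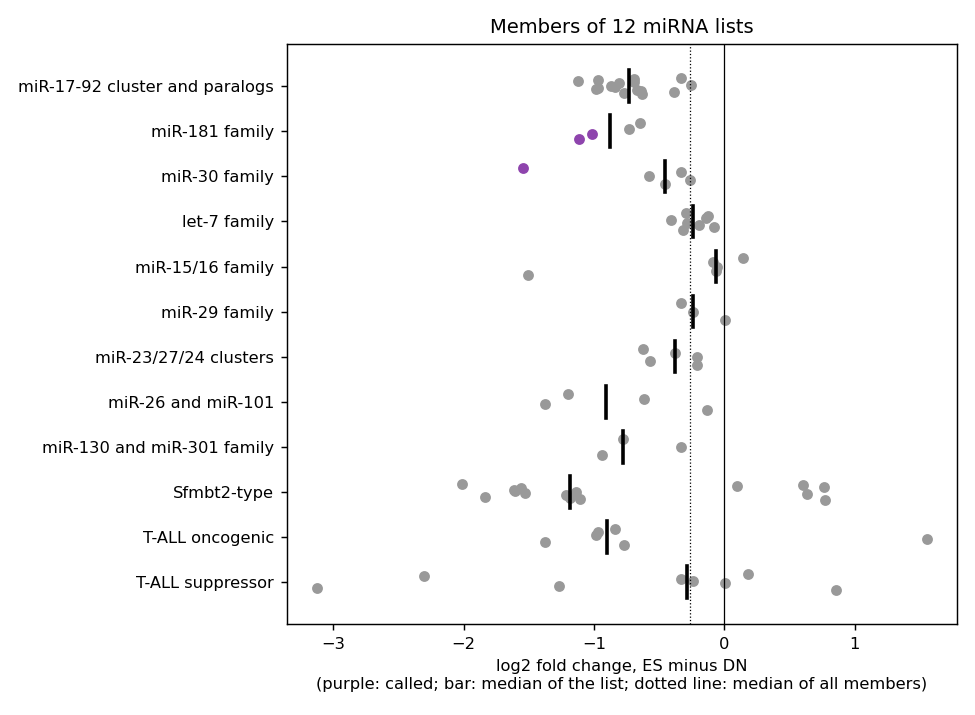
Log2 fold change, ES minus DN, of the members of 12 lists (dots; purple where called) with the list median (bar) and the median of the 192 members (dotted line at -0.26). All 16 dots of the miR-17 clusters lie left of 0, while the medians of the let-7, miR-15/16, miR-29, miR-23/27/24 and suppressor lists change sign when arrays are scaled by all mouse miRNAs.

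Array names of the miR-297, miR-466, miR-467 and miR-669 type, which are numerous in an imprinted cluster inside Sfmbt2, contributed 15 members, of 61 on the array. Of these, 3 were detected on all 6 arrays, with a median log2 fold change of 0.63; the others entered through DN alone. Over the 15 the median was -1.18, but -4.68 with no common floor and -0.01 with a floor 4 times as high, so its size is set by values near background. In the main fit 0 of the 15 were called in limma while 7 had an unadjusted p under 0.05. miR-669c-3p, of this name type but not a member, was called higher. Under the other scalings 0 of the 15 were called lower, while some were called higher. These were 4 with all mouse miRNAs, 3 with quantile normalization, 2 with the median of the detected miRNAs and 2 in the deposited value table. The median of the 15 stayed below 0 there, at -1.34 to -0.91. Here ES 2 stood against the others: the median relative to the DN mean was -1.96 on ES 1, 0.24 on ES 2 and -1.36 on ES 3 (-0.41, -0.18 and 0.15 over all members). Without ES 2, 7 of the 15 were called lower, and without ES 1 4 were called higher. These names are near copies of each other, so signals may be shared between them.

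The fit also placed the 12 called members beside LS and DP. LS was compared with the same DN arrays, so the comparisons are not independent. In LS against DN, 64 of the 192 members were called (28% of all tested), and 11 of the 12 were among them. The exception, miR-211-5p, read -4.59, -6.51 and -5.88 in LS (log2 fold change -0.41 with adjusted p = 0.465). For miR-721 the log2 fold change was 2.52 in ES and 3.26 in LS, for miR-3472 2.14 and 3.35, for miR-128-3p -1.64 and -1.63, and for miR-374c-5p -1.12 in both. The difference between LS and ES, tested directly, was called for 2 of the 192 members (1.12% of all tested), neither of them among the 12.

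The surface type of ES matches DP rather than DN, and DP differed from DN in 49 of the 192 members (29.1% of all tested), 26 higher (20.1% of all tested) and 23 lower in DP (8.96%). DP was called on the same side of DN as ES for 4 of the 12: miR-126-3p (log2 fold change, DP minus DN, -1.86), miR-211-5p (-1.85), miR-362-5p (-0.70) and miR-449a-5p (2.21). For these 4, ES and DP were not called different, with ES minus DP at -0.77, 0.18, 0.11 and 1.15. miR-181c-5p was 2.04-fold higher in DP than in DN and lower in ES than in either (ES minus DP -2.05, adjusted p = 2.38e-05). The other 7 did not pass in DP against DN and were called in ES against DP in the same direction as against DN, as was miR-181c-5p, where 41% of all tested miRNAs were called.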

How the data were processed

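RNA was extracted with the miRNeasy kit, per the labels' protocols. Per the file headers, the authors used Agilent Feature Extraction 10.7.3.1, which gave each spot a background-subtracted intensity that is not scaled between arrays. Names are those of miRBase, per the labels. The authors' deposited value table is on the log2 scale; all its columns have a median of 3.29 and rank the miRNAs like the total intensity of the same array. RMA, affy, MAS5 and GCOS stand, with no role, in the submitters' processing notes. No mouse miRNA spot was saturated.

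Without control and outlier spots, linear means were taken first over the spots of a probe and then over the probes of a miRNA. Values were scaled to the array's 75th percentile of the 133 miRNAs, floored and log2-transformed. A miRNA was well above background where at least 50% of the kept spots of a probe carried that mark. limma 3.58.1 (R 4.3.3, with version 1.17.8 of data.table) fitted 12 arrays with 1 mean per group, without an intensity trend; the script was tested on simulated data. M295 was left out of the fit. Bounds set each array of a group that was nowhere above background to the higher of its value and its lowest signal above background.

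Members and lists were chosen with earlier results of these data known. The naming rule took, among called members detected on all 6 arrays, up to 10 in each direction, and up to 5 in each direction among the others, plus listed families; its part on the highest levels was not used, since levels of different miRNAs were not compared. miR-340-5p, miR-22-3p, miR-146b-5p, miR-221-3p, miR-31-5p and miR-148a-3p were named after their values were seen. Alternatives were other background corrections, scalings, filters, floors, weights, slides and replicate blocks, and leaving out each array.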

Additional observations from a re-analysis of the deposited data

Results flagged for a closer look

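Among the 192 members, the difference from DN itself differed between LS and ES for miR-3473b and miR-3968 (limma, both adjusted p = 0.0241). miR-3473b was higher in LS than in ES by 1.25 on the log2 scale (SE 0.23), at 2.21, 1.80 and 1.55 in LS against 0.47, 0.40 and 0.96 in ES. miR-3968 had a log2 fold change, LS minus ES, of -0.94 (SE 0.17), at 1.22, 1.14 and 1.12 in LS against 2.35, 1.86 and 2.10 in ES. Neither group overlapped the other for these miRNAs. Neither was called without ES 1 or without LS 1.

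The single M295 array, used in no comparison, gave signal above every DN array for the 4 members called higher in ES. Its log2 signals were 0.75 for miR-449a-5p, -3.72 for miR-721, -4.23 for miR-370-3p and -5.48 for miR-3472. That for miR-449a-5p was above every ES array and those for miR-721, miR-370-3p and miR-3472 were below all 3 ES arrays. With 1 array there is no test.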

How the results depend on the processing

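The count of called miRNAs, 14 in the main fit, moved with the settings. It was 4 with normexp background correction, 45 with the 75th percentile over all mouse miRNAs, 28 with quantile normalization, 4 with no filter, 5 among miRNAs detected on all 6 arrays, 9 with no common floor, 7 when only the 6 DN and ES arrays were fitted and 33 with array weights. Within slide 1 it was 3 and within slide 2, with 1 ES array, 156. Of the settings chosen after seeing the data, 1 weight per group left 2 calls, and leaving out each DP or LS array gave 8 to 15. Leaving out a DN or ES array gave 1 to 45. Same-numbered DN and ES arrays showed no shared deviation from their group means (correlations of -0.13, 0.03 and -0.09). Such correlations cannot show whether the samples were matched when they were prepared. With the number as a block, 8 were called over 12 arrays and 0 over the 6 arrays in limma, where 35 had an unadjusted p under 0.05.

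Leaving out single arrays moved the members called in LS against ES, 2 in the main fit, to between 0 and 37, and those in DP against DN from 49 to between 31 and 34. The difference in detected miRNAs per array, 6.33, ranged from -23.0 to 43.5, below 0 without DN 3, ES 2 or ES 3. The sign of miR-223-3p turned with array weights (log2 fold change -1.18), within slide 1 (-1.80) and without ES 3 (-1.57; leaving out single arrays gave -1.57 to 3.38). Within slide 2 the sign turned for miR-155-5p (0.37), miR-181a-5p (0.72), miR-26a-5p (0.13) and miR-340-5p (0.40). The cause was not tested. None of the 12 called members took the opposite sign under any setting tried. With a floor 4 times as high the differences of miR-211-5p and miR-362-5p were 0. Leaving out arrays or fitting 1 slide could not turn a sign among the 12, since their ES and DN arrays did not overlap. The number of arrays limits the precision, as does signal near background for miR-3472, miR-211-5p and miR-362-5p.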
